A study of Danio rerio with 30 samples.

Results

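This account covers 10 genes of neurogenesis and early neurons in zebrafish embryos, with or without their eyes, at 18 and 21 hours post fertilization (hpf). The genes are *sox2*, *neurog1*, *ascl1a*, *ascl1b*, *neurod4*, *dla*, *dlb*, *elavl3*, *elavl4* and *isl2a*. Their rows were found by gene symbol and not by their values, but the list was chosen with earlier results of these data known. All 10 were among the 14648 rows of the triplicate experiment and of the preliminary experiment at 21 hpf. In the preliminary table at 18 hpf 9 of the 10 were among 31874 rows, because *ascl1b* is listed there only in a row shared with BX088691.1. All 10 are listed as protein-coding genes in RefSeq.

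In the zebrafish neural plate and tube, dividing progenitors carry SoxB1 factors such as Sox2, and cells that start to differentiate switch on basic helix-loop-helix (bHLH) proneural factors. These cells display Delta ligands, which activate Notch receptors on neighbouring cells and hold them as progenitors through Her proteins. Differentiating cells then express later bHLH factors such as Neurod4, RNA-binding proteins of the Elavl family and LIM-homeodomain factors such as Isl2a. The first neurons, among them Rohon-Beard sensory neurons and primary motor neurons, are born well before the stages sampled here, and further neurons form in brain, spinal cord, cranial ganglia and retina as the embryo grows.

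All embryos were of the \*AB background. The triplicate experiment held 8 groups, since 4 genotypes (wildtype, Tbx5a-deficient, Tbx5b-deficient, double-deficient) were sampled at both stages, and a group was made of 3 libraries of 10 pooled embryos without their eyes. The preliminary experiment sampled 3 genotypes (wildtype, Tbx5a-deficient, Tbx5b-deficient) at both stages by 1 library each, made from 10 pooled embryos that kept their eyes, and left out the double-deficient condition. Deficient embryos had been injected at the single cell stage with a morpholino, an antisense oligonucleotide, against *tbx5a*, *tbx5b* or both, which are paralogous T-box genes of the heart, pectoral fin and eye. Wildtype embryos are given no control injection in the sources used here, so the injection and the loss of Tbx5 cannot be told apart, and a knockdown differs from a mutant in that some protein may remain.

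The deposited values are FPKM (fragments per kilobase of transcript, scaled for sequencing depth), a level per length that can be compared between genes. Cuffdiff had combined the 3 libraries of a triplicate group into 1 value with a lower and an upper confidence bound, so that the spread between libraries is not visible and no test could be run. Differences are given as log2((FPKM + 1)/(FPKM + 1)). A gene was kept in a comparison where both values were marked usable and 1 of them was at least 1 FPKM, and was called where the log2 ratio was at least 1 in size and the bounds lay apart. FPKM summed to between 859057 and 1293230 in the triplicate groups. The median log2 ratio of all genes kept nevertheless lay between -0.04 and 0.01 in their comparisons, so that the deposited scale is not one of equal sums. The width of the bounds was read over usable genes of at least 10 FPKM and 300 bp. There the median upper bound lay between 44.0 and 45.7% above its value in the triplicate groups. It lay 31.0 to 31.1% above it in the preliminary libraries at 18 hpf and 26.6% at 21 hpf. Each table was normalized on its own, so that levels from different tables are set side by side only.

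Neither targeted gene had bounds below those of wildtype under its own morpholino. The paper names the *tbx5b* morpholino as translation blocking, and such a block can leave the transcript in place. In the triplicate groups *tbx5b* lay under the limit of 1 FPKM throughout, so that a fall could not have been seen. In the triplicate groups *tbx5a* lay between 0.982 and 1.90 FPKM and *tbx5b* between 0.0699 and 0.229 FPKM, with overlapping bounds throughout. *tbx5b* was at 0.241 to 0.478 FPKM in the preliminary libraries at 18 hpf and at 1.39 to 2.45 FPKM at 21 hpf. Preliminary wildtype at 18 hpf had *tbx5a* at 1.11 FPKM, while the libraries labelled Tbx5a-deficient and Tbx5b-deficient had 1.01 and 5.30 FPKM. For 21 hpf the corresponding levels were 2.51, 16.1 and 3.88 FPKM. The library with the high level thus carries the opposite label at each stage, and the preliminary libraries are named by their labels throughout. Whether the Tbx5a-deficient and Tbx5b-deficient labels of 1 stage were exchanged cannot be told apart from these values, and an exchange at 21 hpf would give the values of the library labelled Tbx5b-deficient to the *tbx5a* morpholino.

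The progenitor gene *sox2* encodes a SoxB1 factor that keeps neural cells dividing. In the triplicate table it is listed at chromosome 22, 37412976 to 37415060. Wildtype embryos at 18 hpf had 32.9 FPKM of it, Tbx5a-deficient ones 35.2, Tbx5b-deficient ones 27.4 and double-deficient ones 31.9, and at 21 hpf the levels in this order were 25.3, 29.7, 29.5 and 31.5 FPKM. The highest group was 1.40 times the lowest, with overlapping bounds. Preliminary *sox2* at 18 hpf, where its row spans 179028 bp, was 29.4 FPKM in wildtype, with 30.8 FPKM under the Tbx5a-deficient label and 41.5 FPKM under the Tbx5b-deficient label. At 21 hpf it was 79.7, 86.4 and 58.6 FPKM, and the bounds of the 3 libraries overlapped.

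The bHLH gene *neurog1* starts neurogenesis in the sensory neurons of the neural plate and the cranial ganglia. It is listed at chromosome 14, 26405226 to 26406714, and was the highest of the 10 genes in triplicate wildtype at both stages. Its levels, by genotype in the same order, were 37.1, 36.2, 30.3 and 28.2 FPKM at 18 hpf and 31.4, 37.1, 27.1 and 28.1 FPKM at 21 hpf. Among the 10 genes *neurog1* varied least across the triplicate groups, 1.37 times from lowest to highest. The preliminary levels, in wildtype first and then under the labels Tbx5a-deficient and Tbx5b-deficient, were 24.7, 31.7 and 24.6 FPKM at 18 hpf, and 48.6, 48.1 and 29.0 FPKM at 21 hpf. The library labelled Tbx5b-deficient was the lowest at 21 hpf, but its bounds, 21.2 to 36.9 FPKM, still reached those of wildtype, 35.7 to 61.5 FPKM.

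The paralogues *ascl1a* and *ascl1b* encode bHLH proneural factors of the achaete-scute family, used in forebrain, hindbrain and retina. *ascl1a* (chromosome 4, 17428153 to 17429822) was at 9.37, 8.51, 8.399 and 9.57 FPKM at 18 hpf, in the order of genotypes used above, and at 11.2, 12.6, 11.1 and 10.7 FPKM at 21 hpf. Every group was thus higher at 21 hpf than its own group at 18 hpf, by less than the bounds. *ascl1b* (chromosome 7, 49442993 to 49444420) was at 20.6, 18.8, 14.2 and 17.7 FPKM at 18 hpf and at 25.3, 24.3, 22.8 and 23.6 FPKM at 21 hpf. It was again higher at 21 hpf in each of the 4 genotypes, and *ascl1b* was above *ascl1a* in all 8 groups, with an *ascl1a* to *ascl1b* ratio between 0.443 and 0.592. The bounds of *ascl1a* and *ascl1b* overlapped in all 8 groups. Preliminary *ascl1a* was 7.20, 8.84 and 9.90 FPKM at 18 hpf and 34.3, 33.2 and 17.6 FPKM at 21 hpf, with wildtype again first, the Tbx5a-deficient label next and the Tbx5b-deficient label last. *ascl1b* at 21 hpf was 38.8, 36.3 and 14.7 FPKM. In the library labelled Tbx5b-deficient *ascl1b* thus lay below *ascl1a*, at a ratio of 1.20, against 0.883 in wildtype. The bounds of the pair overlapped in both of these libraries. The shared row of BX088691.1 and *ascl1b* at 18 hpf, which also holds signal of its other gene, was at 7.98, 15.9 and 13.3 FPKM.

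*neurod4* encodes a bHLH factor that acts after the proneural genes in committed neuronal precursors. It is listed at chromosome 23, 28417448 to 28420498. Its level was 14.8, 15.8, 13.1 and 14.6 FPKM by genotype at 18 hpf (wildtype first, double-deficient last), and 13.4, 19.5, 15.6 and 16.3 FPKM at 21 hpf. The values of the 8 groups fell within a factor of 1.49. Preliminary *neurod4* was 8.55, 14.7 and 14.5 FPKM at 18 hpf and 49.1, 44.3 and 19.9 FPKM at 21 hpf, in the order wildtype, labelled Tbx5a-deficient, labelled Tbx5b-deficient. Both deficient libraries were above wildtype at 18 hpf with overlapping bounds, and that labelled Tbx5b-deficient was below wildtype at 21 hpf.

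The Delta ligands *dla* and *dlb* are expressed by cells that start to differentiate and send the Notch signal to their neighbours. *dla* (chromosome 1, 53353712 to 53366435) was at 20.2, 20.3, 22.7 and 17.6 FPKM at 18 hpf and 16.1, 25.1, 19.8 and 21.4 FPKM at 21 hpf, again from wildtype to double-deficient. *dlb* (chromosome 5, 36093736 to 36101607) was at 29.8, 28.2, 30.6 and 26.8 FPKM at 18 hpf and 25.7, 36.1, 28.1 and 28.0 FPKM at 21 hpf. For both ligands the lowest of the 8 groups was wildtype at 21 hpf and the highest was Tbx5a-deficient at 21 hpf, within overlapping bounds. The preliminary libraries gave *dla* at 15.8, 27.0 and 23.8 FPKM at 18 hpf and 59.9, 59.7 and 26.7 FPKM at 21 hpf, with the library labelled Tbx5b-deficient last. *dlb* was at 21.9, 31.9 and 30.0 FPKM at 18 hpf and at 75.4, 74.5 and 40.4 FPKM at 21 hpf. The pair kept a *dla* to *dlb* ratio between 0.627 and 0.847 in all 14 groups and libraries.

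*elavl3* and *elavl4* encode neuronal RNA-binding proteins, and *elavl3* (HuC) is the usual marker of newly born neurons in zebrafish. *elavl3* (chromosome 3, 48850664 to 48865165) was at 20.9, 16.2, 22.4 and 17.6 FPKM at 18 hpf and 14.1, 18.6, 17.1 and 24.2 FPKM at 21 hpf, from wildtype to double-deficient as before. *elavl4* (chromosome 8, 15968442 to 16080278) was the lowest of the 10 genes in every triplicate group, at 2.22, 1.98, 2.37 and 1.61 FPKM at 18 hpf and 2.398, 3.43, 2.96 and 3.35 FPKM at 21 hpf. *elavl4* varied most among the 10 genes, 2.13 times from lowest to highest, which was below the 3.19 times that its bounds needed to part. Preliminary *elavl3* was 43.6, 43.0 and 62.5 FPKM at 18 hpf and 132.3, 146.8 and 115.9 FPKM at 21 hpf, in the same order of labels. *elavl4* was 2.12, 3.04 and 4.197 FPKM at 18 hpf and 16.0, 18.9 and 14.1 FPKM at 21 hpf. The bounds of *elavl3* and of *elavl4* overlapped among the libraries of each stage.

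*isl2a* encodes a LIM-homeodomain factor of primary motor neurons and Rohon-Beard cells. It is listed at chromosome 25, 32338952 to 32344917. Its level was 19.5, 23.0, 19.8 and 22.5 FPKM from wildtype to double-deficient at 18 hpf and 19.9, 17.3, 16.6 and 18.4 FPKM at 21 hpf. It was 23.5, 17.7 and 17.8 FPKM in the preliminary libraries at 18 hpf and 18.3, 18.6 and 17.7 FPKM at 21 hpf. *isl2a* differed least of the 10 genes in the preliminary libraries at 21 hpf, 1.05 times from lowest to highest.

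**Figure D1:**
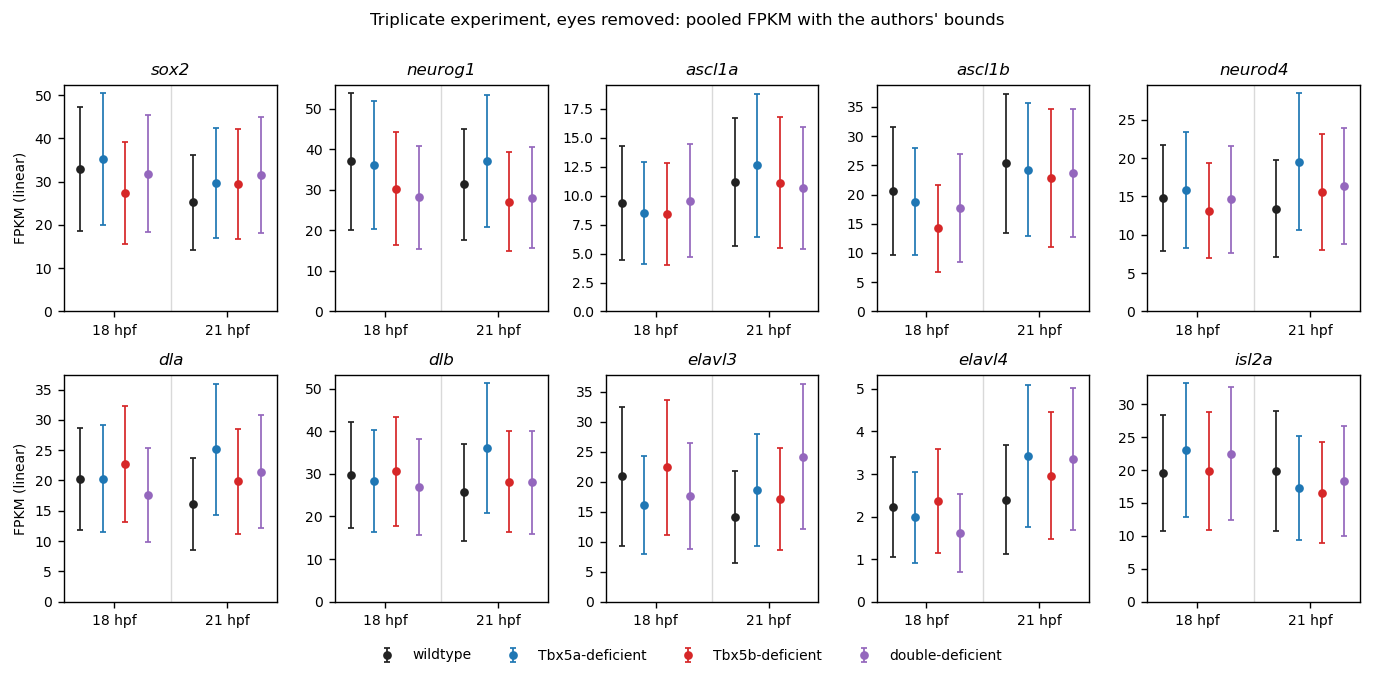
FPKM of each of the 10 genes (y axis, linear, from 0) in the 8 groups of the triplicate experiment by stage (x axis), as 1 pooled value of 3 libraries with the authors' lower and upper bounds. The bounds of all 8 groups overlap in every panel, and the widest range is that of *elavl4*, from 1.61 to 3.43 FPKM.

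**Figure D2:**
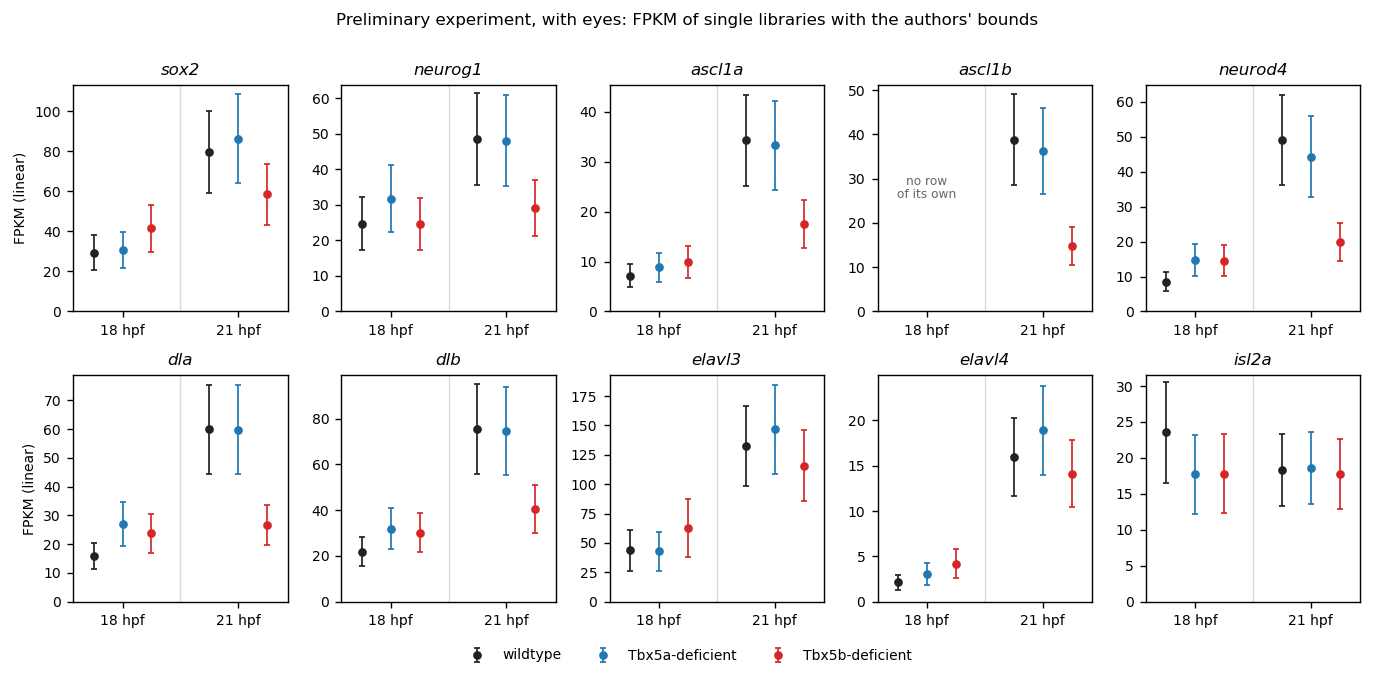
FPKM of each of the 10 genes (y axis, linear, from 0) in the single preliminary libraries by stage (x axis) with the authors' bounds; the stages come from separately normalized tables, and *ascl1b* has no row of its own at 18 hpf. At 21 hpf the library labelled Tbx5b-deficient has bounds below those of wildtype for *ascl1a*, *ascl1b*, *neurod4*, *dla* and *dlb*.

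The order of the 10 genes was compared within groups. In triplicate wildtype at 18 hpf it ran from *neurog1* through *sox2*, *dlb*, *elavl3*, *ascl1b*, *dla*, *isl2a*, *neurod4* and *ascl1a* to *elavl4*. Each neighbouring pair had overlapping bounds except *ascl1a* and *elavl4*, and this held in wildtype at 21 hpf too, where *ascl1b* stood at 3 and *elavl3* at 7. In preliminary wildtype *elavl3* was first at both stages, and at 21 hpf the only neighbours with bounds apart were *ascl1a* at 8 and *isl2a* at 9. The *elavl3* to *neurog1* ratio was 0.564 in triplicate wildtype at 18 hpf and 0.450 at 21 hpf, and 1.77 and 2.72 in preliminary wildtype at the same stages. The experiments differ in the eyes, the number of libraries, the total of reads and the processing run. Which of these goes with the ratio cannot be told apart.

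The first question was whether these genes changed between 18 and 21 hpf, which could be asked within the triplicate experiment. In wildtype embryos none of the 10 genes had bounds apart between the stages, against 0.597% of the 10724 genes kept, and none was called, against 0.578% (62 genes). Their median log2 ratio was -0.17, beside 0.01 for all genes kept, with 4 genes above 0 and 6 below. The highest ratios were those of *ascl1b* (0.29) and *ascl1a* (0.24), and the lowest those of *elavl3* (-0.53), *sox2* (-0.37) and *dla* (-0.31). *elavl3* was the only one of the 10 at or below -0.5, against 4.34% of all genes kept, and none was at or above 0.5, against 7.56%. A difference would have had to reach between 2.46 and 3.19 times, depending on the gene, for the bounds to part, so that smaller changes with stage were not detectable. In bulk embryos fewer cells of a type and less RNA per cell cannot be told apart.

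The ratios between the stages differed in sign among the other genotypes, all with overlapping bounds. In Tbx5a-deficient embryos 0 of the 10 genes had bounds apart between the stages (1.13% of all genes kept) and 0 were called (1.06%), with 8 above 0 and a median of 0.29. In Tbx5b-deficient embryos 0 had bounds apart (0.801% of all genes kept) and 0 were called (0.773%), with 5 above 0 and a median of -0.01. In double-deficient embryos 0 had bounds apart (1.43%) and 0 were called (1.37%), with 7 above 0 and a median of 0.15. *ascl1a* and *ascl1b* were above 0 in all 4 genotypes, and so was *elavl4*, from 0.08 in wildtype to 0.74 in double-deficient embryos, but with values scaled to the same sum in each group *ascl1a* (-0.01) and *elavl4* (-0.11) turned below 0 in wildtype. *elavl3* was below 0 in wildtype (-0.53) and Tbx5b-deficient embryos (-0.37) and above 0 in Tbx5a-deficient (0.19) and double-deficient embryos (0.43).

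Wider lists of neural genes held no called gene between the stages in wildtype, and neither did the epidermal list. At the 0.578% of all genes kept that were called, lists of this length would hold few or none. The skeletal muscle, eye and erythroid and endothelial lists held from 1 to 5 called genes. Among proneural and neuronal transcription factors 0 of 37 kept genes were called, with a median of -0.05, and the ends of the list were *ptf1a* (0.79 to 2.202 FPKM), a bHLH gene of inhibitory neurons, and *tlx3b* (3.21 to 2.26 FPKM). Among Notch pathway genes 0 of 36 were called and 30 lay below 0, with a median of -0.25; the lowest were *mib1*, the ubiquitin ligase that activates Delta (20.4 to 12.5 FPKM), and the receptor gene *notch1a* (9.45 to 5.65 FPKM). Among neural progenitor genes 0 of 41 were called and 33 lay below 0, with a median of -0.29. Among neuron differentiation and axon genes 0 of 47 were called and 32 lay above 0, with a median of 0.09, led by the neurofilament gene *nefmb* (1.74 to 4.85 FPKM). With values scaled to the same sum in each group the median of all genes kept moved from 0.01 to -0.22, and that of the neuron differentiation and axon genes turned to -0.10, with 16 above 0. Of the skeletal muscle markers 5 of 24 were called higher, against 0.438% of all genes kept, with a median of 0.94, among them *pvalb2* (3.85 to 34.5 FPKM) and *tnni2a.4* (5.16 to 46.7 FPKM). Also called higher were 1 of 17 eye markers, *tyrp1b* of pigment cells (0.32 to 2.78 FPKM), and 1 of 11 erythroid and endothelial markers, the red cell anion exchanger gene *slc4a1a* (1.68 to 7.04 FPKM). Of these, *tyrp1b* passed the limit of 1 FPKM only at 21 hpf, where it was high, and so did *ptf1a* above. Of the epidermal markers 0 of 8 were called.

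The second question was whether loss of Tbx5a, Tbx5b or both altered these genes. In the triplicate experiment at 18 hpf none of the 3 deficient groups parted from wildtype in any of them. In Tbx5a-deficient embryos 0 of 10 had bounds apart from wildtype (0.303% of all genes kept) and 0 were called (0.255%), with a median log2 ratio of -0.05. In Tbx5b-deficient embryos 0 had bounds apart (0.301%) and 0 were called (0.254%), with a median of -0.06, and *ascl1b* had the lowest ratio, -0.51. In double-deficient embryos 0 had bounds apart (0.265%) and 0 were called (0.237%), with a median of -0.17 and *neurog1* the lowest at -0.38. Over all 30 values at this stage the range was -0.51 to 0.23.

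At 21 hpf the triplicate medians lay above 0, again with overlapping bounds. In Tbx5a-deficient embryos 0 of 10 genes had bounds apart from wildtype (0.316% of all genes kept) and 0 were called (0.298%), 8 were above 0 and the median was 0.30, with *dla* (0.61), *neurod4* (0.51) and *dlb* (0.48) highest. In Tbx5b-deficient embryos 0 had bounds apart (0.252%) and 0 were called (0.224%), and the median was 0.17. In double-deficient embryos 0 had bounds apart (0.305%) and 0 were called (0.277%), the median was 0.20, and *elavl3* (0.73) was the highest. *elavl3*, *elavl4*, *neurod4*, *dla*, *dlb* and *sox2* were above wildtype in all 3 deficient groups, and *isl2a* and *ascl1b* were below it in all 3, which turned with values scaled to the same sum in each group, where all 10 genes were above wildtype in each deficient group and the medians were 0.78, 0.52 and 0.61, beside 0.46, 0.32 and 0.35 for all genes kept, still with 0 genes called. These groups share the wildtype value, so that the like signs are not independent of each other.

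Medians of markers of other tissues lay off 0 in some of these comparisons and near 0 in others. All of these markers had overlapping bounds at the deposited scale, at which the medians are given. Scaling to the same sum moved the medians of all genes kept to 0.46, 0.32 and 0.35, so that medians of this size depend on the scale. The 17 to 20 eye markers kept had a median of -0.03 where Tbx5a was targeted, of 0.45 where Tbx5b was and of 0.01 where both were, and the summed level of the list was 77.3 FPKM in wildtype and 77.2, 106.8 and 78.8 FPKM in these groups. The 24 skeletal muscle markers had medians of 0.07, 0.18 and 0.41 in the same order, with 22 above 0 in double-deficient embryos. The 8 epidermal markers kept had medians of -0.57, -0.25 and -0.64, with 6 below 0 in each group. The 11 erythroid and endothelial markers kept had medians of -0.21, -0.08 and -0.02. Listed at 0 in all 4 groups were *crygm2d1* of the eye and *krt4* of the epidermal markers. The part of these tissues in the values of the 10 genes was not tested.

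In the preliminary libraries at 18 hpf most of the genes lay above wildtype. In the library labelled Tbx5a-deficient 0 of 9 genes had bounds apart (2.53% of all genes kept) and 0 were called (1.57%), 7 were above 0 and the median was 0.35. In that labelled Tbx5b-deficient 0 had bounds apart (2.69%) and 0 were called (1.58%), 7 were above 0 and the median was 0.48. The medians over all genes kept were -0.03 and -0.02. The largest ratios were those of *dla* (0.73) and *neurod4* (0.72) in the former and of *elavl4* (0.74) and *neurod4* (0.69) in the latter, and *isl2a* was lowest in both at -0.39. Both ratios use the same wildtype library. The 21 eye markers kept had medians of 0.05 under the Tbx5a-deficient label and 0.37 under the Tbx5b-deficient one, where 1 was called higher, and their list summed to 139.9 FPKM in wildtype and to 141.1 and 163.4 FPKM in these libraries. Medians under the 2 labels were 0.02 and -0.13 for skeletal muscle, 0.28 and 0.17 for erythroid and endothelial and 0.10 and 0.05 for epidermal markers. Under the Tbx5b-deficient label 1 of 21 skeletal muscle and 1 of 13 erythroid and endothelial rows were also called higher. Over all genes kept 0.606% were called higher there. Under the Tbx5a-deficient label 1 of 13 erythroid and endothelial rows was called higher and 1 lower, against 1.57% called in either direction. The part of these markers in the values of the 10 genes was not tested.

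At 21 hpf the preliminary library labelled Tbx5a-deficient was close to wildtype. Here 0 of 10 genes had bounds apart (0.215% of all genes kept) and 0 were called (0.0772%). The ratios ran from -0.15 for *neurod4* to 0.23 for *elavl4*, with a median of -0.01.

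The preliminary library labelled Tbx5b-deficient at 21 hpf was the only one of the 14 comparisons in which any of the 10 genes parted from its base. All 10 lay below wildtype (9 with values scaled to the same sum), with a median log2 ratio of -0.80, beside -0.00026 for all 11735 genes kept. In it 5 of the 10 had bounds apart and lower, against 2.34% of all genes kept, and 3 of the 10 were called lower, against 0.937%. With 1 library a group this compares libraries and not conditions, and it has no replicate check, and the doubt about the labels given above applies to it. A difference of 1.70 to 1.75 times was enough for bounds to part in the preliminary libraries of this stage. At 18 hpf 1.79 to 2.32 times were needed, and 2.46 to 3.19 times in the triplicate groups. The 5 genes differed by 1.87 to 2.64 times, each by less than its own bounds needed in the triplicate groups.

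The genes with bounds apart were proneural factors, a later bHLH factor and Delta ligands. *ascl1b* was 38.8 FPKM (bounds 28.5 to 49.2) in wildtype and 14.7 FPKM (10.4 to 19.0) in the library labelled Tbx5b-deficient, a log2 ratio of -1.34. *neurod4* went from 49.1 FPKM (36.3 to 61.9) to 19.9 FPKM (14.5 to 25.3), a log2 ratio of -1.26. *dla* went from 59.9 FPKM (44.4 to 75.5) to 26.7 FPKM (19.8 to 33.7), a log2 ratio of -1.14. These 3 passed the limit of 1 and were called. *ascl1a*, from 34.3 FPKM (25.2 to 43.4) to 17.6 FPKM (12.7 to 22.4), had a log2 ratio of -0.93. *dlb*, from 75.4 FPKM (55.8 to 94.9) to 40.4 FPKM (29.9 to 50.8), had one of -0.88. Both had bounds apart but stayed under the limit, and with values scaled to the same sum in each library the bounds of *dlb* met, leaving 4 genes with bounds apart.

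The other 5 genes had overlapping bounds in that comparison. The ratio was -0.72 for *neurog1* and -0.44 for *sox2*. The Elavl genes and *isl2a* were nearest to wildtype, at -0.19 for *elavl3*, -0.17 for *elavl4* and -0.04 for *isl2a*, which turned to 0.09 with values scaled to the same sum. In summed FPKM the 4 bHLH genes were at 170.8 in wildtype and 81.2 in the library labelled Tbx5b-deficient, the Delta pair at 135.3 and 67.1, and the Elavl pair at 148.3 and 130.0. The library labelled Tbx5a-deficient had 161.9, 134.2 and 165.7 FPKM for the same sums. A difference between the bHLH or Delta genes and the Elavl genes was not tested.

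**Figure D3:**
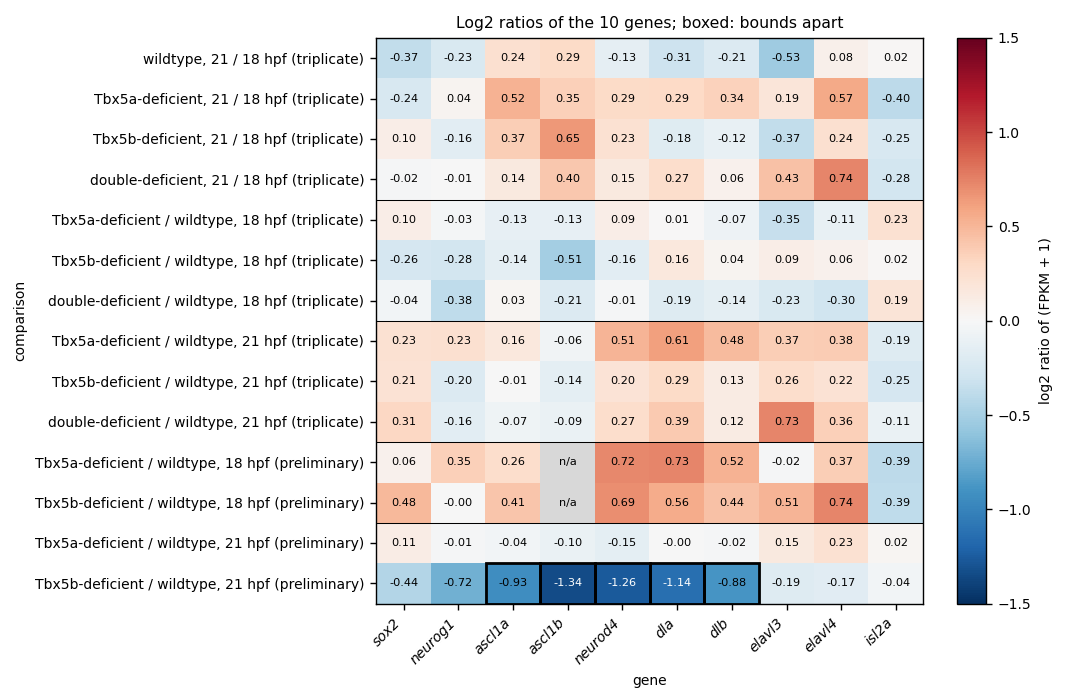
Log2 ratios of (FPKM + 1) of the 10 genes (columns) in the 14 comparisons (rows), on a colour scale from -1.5 to 1.5, with boxes where the authors' bounds did not overlap. The only boxes are 5 in the bottom row, the preliminary library labelled Tbx5b-deficient against wildtype at 21 hpf, from -0.88 to -1.34.

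Other genes of the pathway were read in the same comparison. Among proneural and neuronal transcription factors 9 of 45 kept genes had bounds apart and lower and 4 were called lower, none higher, with a median of -0.49. The shares to set beside these and the following counts are again 2.34% of all genes kept for bounds apart and lower and 0.937% for called lower, and 1.75% had bounds apart and higher. They included *nhlh2*, a bHLH gene of early neurons (26.0 to 10.8 FPKM), the Scratch repressor gene *scrt1a* (12.1 to 2.80 FPKM) and *atoh1b*, a bHLH gene of hindbrain and hair cells (23.5 to 11.6 FPKM). In the Notch pathway 8 of 37 had bounds apart and lower and 5 were called lower, with a median of -0.38. Of its 10 measured ligands and receptors the Delta gene *dld* was lower with bounds apart (62.6 to 28.9 FPKM). The receptor genes *notch3* (88.3 to 57.2 FPKM), *notch1a* (45.1 to 31.7 FPKM) and *notch1b* (31.4 to 22.1 FPKM) had overlapping bounds. So did *notch2* (15.15 to 16.3 FPKM) and the ligand genes *dlc* (27.7 to 21.5 FPKM), *jag1a* (6.71 to 4.64 FPKM), *jag1b* (9.04 to 11.3 FPKM), *jag2b* (21.5 to 18.8 FPKM) and *dll4* (4.88 to 5.11 FPKM). The remaining 7 with bounds apart were genes of the Her/Hes family or the Notch regulator gene *nrarpb*, among them *her13* (38.8 to 13.6 FPKM), *her4.2* (11.2 to 4.37 FPKM), *nrarpb* (42.2 to 21.7 FPKM) and *hes6* (49.0 to 26.3 FPKM).

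Of the neural progenitor genes in that library 8 of 41 had bounds apart and lower and 1 higher, with a median of -0.30. The lower ones included *fabp7a*, a fatty acid binding protein of radial glia (220.8 to 72.4 FPKM), *gfap* (136.3 to 71.4 FPKM) and *sox19b*, a SoxB1 gene like *sox2* (36.8 to 20.5 FPKM). The one higher was *sox4b* (13.1 to 30.3 FPKM), which is on this list although it is a SoxC gene of committed neuronal precursors and other tissues. Among neuron differentiation and axon genes 4 of 65 had bounds apart and lower and 1 was called lower, with a median of -0.28. Genes in these paragraphs other than the Notch ligands and receptors, *her13* and *atoh1b* were named after their values were seen.

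Markers of other tissues moved in the same library. Of the eye markers (retina and lens) 9 of 27 kept had bounds apart and lower and 6 were called lower, with a median of -0.39, and their summed level was 697.3 FPKM in wildtype, against 662.8 FPKM under the Tbx5a-deficient label and 433.7 FPKM under the Tbx5b-deficient one. They included the lens crystallin gene *cryba4* (62.6 to 24.9 FPKM) and the retinal progenitor gene *rx2* (7.86 to 2.94 FPKM), and no marker of the list was at 0 in these libraries. Of the skeletal muscle markers 4 of 24 had bounds apart and lower and 1 higher. The lower ones included *pvalb2* (646.2 to 267.2 FPKM) and *tnni2a.4* (537.3 to 292.5 FPKM). The muscle median was -0.17, with 16 markers below 0 and 8 above. Of the erythroid and endothelial markers 2 of 12 had bounds apart and lower, with a median of -0.39 like that of the eye markers, and of the epidermal markers 1 of 8 was lower and 1 higher, with a median of 0.26. Their part in the result for the 10 genes was not tested. In the triplicate groups without eyes the summed eye markers lay between 59.4 and 106.8 FPKM, and the median of the 10 genes in Tbx5b-deficient embryos at 21 hpf was 0.17. *crygm2d1* was at 0 in those 8 groups and in the 3 preliminary libraries at 18 hpf, which kept their eyes, and *krt4* was at 0 in all 14. *rx2*, *crygm2d1* and *krt4* too were named after their values were seen.

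**Figure D4:**
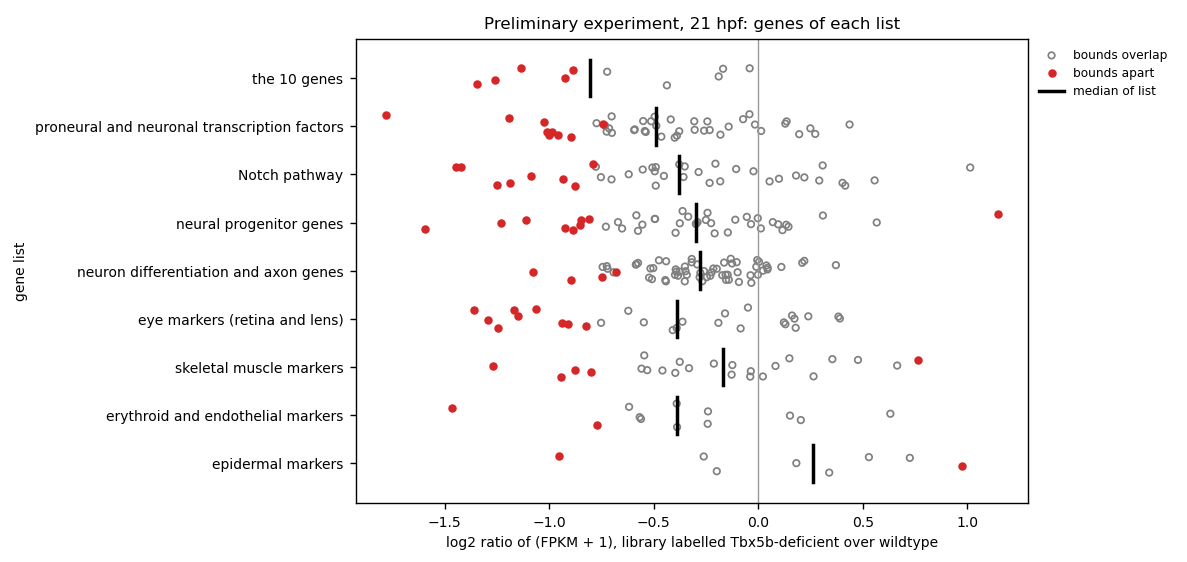
Log2 ratio of (FPKM + 1) of the preliminary library labelled Tbx5b-deficient over wildtype at 21 hpf (x axis) for the kept genes of each list (y axis), with filled points where bounds did not overlap and a bar at each median. The 10 genes have a median of -0.80, the other neural lists medians from -0.49 to -0.28, the eye and the erythroid and endothelial markers -0.39 each, skeletal muscle -0.17 and epidermal markers 0.26.

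At 18 hpf a few genes of the neural lists were called in the other direction in the preliminary libraries. Over all genes kept 0.56% were called higher under the Tbx5a-deficient label and 0.606% under the Tbx5b-deficient one, and 1.03 and 1.25% had bounds apart and higher. Proneural factors had 1 of 34 kept genes called higher in the library labelled Tbx5a-deficient and 1 of 33 in that labelled Tbx5b-deficient, in both cases *ptf1a*, which was 0.35 FPKM in wildtype and 1.83 and 1.75 FPKM in them. *ptf1a* thus passed the limit of 1 FPKM only in the deficient libraries. Of the neural progenitor genes 3 of 39 had bounds apart and higher in the former, with 1 called, and 1 was lower with bounds apart (1.5% of all genes kept). In the latter 5 of 39 had bounds apart and higher and 2 were called. Notch pathway genes had 1 called higher in each library, of 34 and 35 kept, and neuron differentiation and axon genes had 3 of 47 and 1 of 46 with bounds apart and higher and none called. Among the progenitor genes *fabp7a* went from 16.7 FPKM in wildtype to 51.7 and 49.7 FPKM and *gfap* from 54.1 FPKM to 101.2 and 97.7 FPKM, both named after their values were seen. At 21 hpf in the library labelled Tbx5a-deficient, 0 genes of the 4 neural lists had bounds apart.

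The genes whose levels across the 8 triplicate groups were most like each of the 10 were found by Pearson's r of log2(FPKM + 1). The gene with the highest r was *pou3f3a* for *sox2* (0.952), *zgc:66443* for *neurog1* (0.921), *ahsa1a* for *ascl1a* (0.985) and *tmem243b* for *ascl1b* (0.981). It was *nr2f1b* for *neurod4* (0.945), *atp6v0a2b* for *dla* (0.961), *acss2* for *dlb* (0.970), *gna11a* for *elavl3* (0.964), *atl3* for *elavl4* (0.988) and *ptgs1* for *isl2a* (0.973). Each gene named had the highest r among 7679 genes, and over 8 values so wide a search can by itself give a high r. These values rest on 8 pooled values per gene that share their libraries and differ by less than the bounds, and they describe likeness only.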

How the data were processed

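RNA was measured by single-end 50 bp sequencing of oligo dT cDNA. The authors aligned reads with TopHat2 (2.1.0, on Bowtie2 2.2.5.0 in the submitters' processing notes) and deposited FPKM values with confidence bounds from Cuffdiff, 1 per group of 3 libraries (triplicate) or per library (preliminary). The confidence level behind the bounds is not stated in the sources used here. The paper gives read totals for whole experiments only, and the depth of each library is not known here. Its total is larger for the preliminary experiment, with 6 libraries, than for the triplicate experiment, with 24. The preliminary libraries were thus deeper on average, and the part of depth in the width of the bounds was not tested. The processing notes name GRCz10 (danRer10) and the paper's methods Zv9. Coordinates are those of the triplicate table, 1-based, whose unplaced sequences carry GRCz10-type names; the preliminary table at 18 hpf has Zv9 names. Columns named control or *AB were read as wildtype.

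The planned rule for pooled values was applied with Python 3.11.15 and pandas 2.3.3, after a check on simulated data. A limma model had been foreseen only if the 3 libraries of a group were listed singly, and it was not run. Lists were described by counts and medians over kept genes. The members and lists were chosen with earlier results of these data known. Named are the 10 genes, the 2 highest and 2 lowest of each list by the wildtype ratio of stages where shown, the Notch ligands and receptors, and the genes most alike among those with a mean of at least 5 FPKM, apart from those stated as named after their values were seen. Alternatives were other pseudocounts, filters and scalings. No sequence was printed, as no sequence table was at hand.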

Additional observations from a re-analysis of the deposited data

Results flagged for a closer look

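For 7 of the 9 genes measured at both stages the preliminary library labelled Tbx5b-deficient lay on opposite sides of wildtype at the 2 stages, and 4 of them had bounds apart at 21 hpf. The 7 follow from counts given above, as all 10 genes lay below wildtype at 21 hpf and 7 of 9 above it at 18 hpf. Over all genes kept 2.34% had bounds apart and lower at 21 hpf, and the share on opposite sides was not counted. *ascl1a* had a log2 ratio of -0.93 at 21 hpf and 0.41 at 18 hpf. *neurod4* had -1.26 at 21 hpf and 0.69 at 18 hpf, and 0.20 in the triplicate Tbx5b-deficient embryos at 21 hpf. *dla* had -1.14 at 21 hpf and 0.56 at 18 hpf, and 0.29 in the triplicate embryos at 21 hpf. *dlb* had -0.88 at 21 hpf and 0.44 at 18 hpf, and 0.13 in the triplicate embryos at 21 hpf. For these 4 genes the bounds were apart in the comparison at 21 hpf in the preliminary libraries and overlapped in the others. In those others a larger difference was needed for the bounds to part. The other 3, with overlapping bounds at both stages, were *sox2* (-0.44 at 21 hpf and 0.48 at 18 hpf), *elavl3* (-0.19 and 0.51) and *elavl4* (-0.17 and 0.74). Under the Tbx5a-deficient label 7 of 9 also lay on opposite sides at the 2 stages, all with overlapping bounds and with ratios between -0.15 and 0.23 at 21 hpf. With 1 library or 1 pooled value a group, these differences were not tested. The stages of the preliminary experiment come from separate tables, and *tbx5a* was high under opposite labels at the 2 stages. The triplicate embryos lacked eyes, and their experiment had fewer reads in total. These circumstances cannot be told apart.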

How the results depend on the processing

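No paired analysis was possible because the deposited columns pool the 3 libraries of a group, and no replicate could be left out for the same reason. The number of the 10 genes called did not change in any of the 14 comparisons under any alternative run, including a centring on genes of 10 to 150 FPKM that was chosen after seeing the data. Scaling to the same sum in each group moved the median of all genes kept most in triplicate Tbx5a-deficient embryos against wildtype at 21 hpf, from -0.02 to 0.46. For the preliminary library labelled Tbx5b-deficient at 21 hpf this median moved from -0.00026 to 0.13. The scaling turned the sign of 30 of 138 ratios of the 10 genes, none larger than 0.28 in size. It also turned the triplicate median of Tbx5b-deficient against wildtype at 18 hpf from -0.06 to 0.22. In the preliminary library labelled Tbx5b-deficient at 21 hpf the median ratio of the 10 genes stayed between -0.82 and -0.67. The count of all genes called there was 194, against 317 without a pseudocount and 311 with one of 0.1. Over these 9 other settings that count moved by over 1.5 times in 12 of 14 comparisons when bounds were not used (from 9 to 250 genes, to 40 to 604), in 9 without a pseudocount, in 7 at loci of at least 300 bp, in 3 with a pseudocount of 0.1 and in 1 with scaling. In triplicate comparisons with wildtype, 24 to 32 genes were called, and 3 to 8 at loci of at least 300 bp.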

Other observations

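*sox4b*, a SoxC gene of committed neuronal precursors and other tissues, had bounds apart from wildtype in opposite directions under different preliminary labels. It was singled out after its values were seen, and the doubt about the labels applies to it. Over all genes kept 1.5% had bounds apart and lower under the Tbx5a-deficient label at 18 hpf. Under the Tbx5b-deficient label at 21 hpf 1.75% had bounds apart and higher. At 18 hpf *sox4b* was 21.1 FPKM in wildtype, 10.4 FPKM (bounds apart) under the Tbx5a-deficient label and 14.1 FPKM under the Tbx5b-deficient one. Its levels at 21 hpf were 13.1, 15.9 and 30.3 FPKM, with bounds apart in the last. In the triplicate groups it lay between 11.6 and 18.6 FPKM with overlapping bounds.

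The Hes family gene *hes6* was the single gene of the neural lists called between the stages in any triplicate genotype. It fell from 87.9 FPKM at 18 hpf to 34.8 FPKM at 21 hpf in double-deficient embryos, a log2 ratio of -1.31, and it too was named after its values were seen. By genotype 0.578 to 1.37% of all genes kept were called between the stages, which a single gene over all these lists does not exceed. Values of pooled embryos without their eyes do not show in which tissue *hes6* fell.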
